A study of Mus musculus with 4 samples.

Results

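The miR-30 family was followed in small RNA libraries of mouse liver through 8 mature strands of the 1907 counted in each library. They were taken by name: the 5p strands mmu-miR-30a-5p, mmu-miR-30b-5p, mmu-miR-30c-5p, mmu-miR-30d-5p and mmu-miR-30e-5p, and the 3p strands mmu-miR-30a-3p, mmu-miR-30d-3p and mmu-miR-30e-3p, written below without the mouse prefix. The TAA group was 2 livers of 15-week-old C57BL/6 mice given the hepatotoxin thioacetamide (TAA) into the peritoneum at 200 mg/kg, 3 times a week for 10 weeks, a regimen that the series uses to produce liver fibrosis. The control group was 2 livers of C57BL/6 mice of the same age, and the labels do not state whether they received a vehicle. The design text calls the libraries biological replicates without naming animals, so p-values measure the spread between these libraries. The TAA libraries held 43836911 and 48878003 miRNA counts and the control libraries 42609845 and 46224018. miR-122-5p, the defining hepatocyte miRNA, was abundant in all 4, at 17376 and 17500.2 CPM in TAA liver and 18285 and 21607 CPM in control liver.

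A miRNA hairpin is cut by Drosha and Dicer into a short duplex, of which the strand retained by an Argonaute protein guides it to messenger RNAs. Pairing runs mainly through the seed, bases 2 to 8 of the strand, so that strands with the same seed share most predicted targets. The miR-30 guides are 5p strands with a common seed, made in most mammalian tissues. Knockdown in zebrafish linked the family to the development of liver and bile ducts. In rodent hearts, miR-30 represses connective tissue growth factor, a mediator of fibrosis, and in mice miR-30c acts on microsomal triglyceride transfer protein, which hepatocytes need to secrete lipoproteins.

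RefSeq sequences (GRCm38.p6) matched 5 of the 8 members, and they are shown because the shared seed, in capitals, defines the family and because the rest of each strand decides how well its reads can be told from those of its relatives. The 5p strands, each read 5′ to 3′, were:
miR-30a-5p: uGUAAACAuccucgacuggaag
miR-30e-5p: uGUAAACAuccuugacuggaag
miR-30c-5p: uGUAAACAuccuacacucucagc
The 3p strands have another seed, also in capitals:
miR-30a-3p: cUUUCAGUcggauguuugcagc
miR-30e-3p: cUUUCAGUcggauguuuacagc
Counted from 1 at the 5′ end of miR-30a-5p, miR-30e-5p differed from it by the single substitution C13U, in the same number of bases, 22. miR-30c-5p, 23 bases long, differed from miR-30a-5p at 5 of the 22 positions compared (C13A, G14C, G18C, G19U and A20C), all outside the seed. Between the 3p strands, miR-30e-3p differed from miR-30a-3p by G18A alone. The number of mismatches allowed in alignment was not stated, so some reads of miR-30a and miR-30e may have been counted for the other. Of 1623 counted miRNAs with a RefSeq sequence, 4 carried the 5p seed, these 3 with miR-384-5p, which had 0 counts in all 4 libraries. Among those 1623, the 3p seed was carried by miR-30a-3p and miR-30e-3p alone. The members miR-30b-5p, miR-30d-5p and miR-30d-3p had no sequence in this set, so neither seed count could include them.

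The family comes from 3 pairs of neighbouring hairpins (GENCODE, GRCm38). On the plus strand of chromosome 1, Mir30a (chr1:23272269-23272339) lies outside other annotated genes and 19.4 kb before Mir30c-2 (chr1:23291701-23291784), which overlaps an exon of the non-coding gene Gm27028. On the minus strand of chromosome 4, Mir30c-1 (chr4:120769534-120769622) and Mir30e (chr4:120772606-120772697) lie 2.98 kb apart in introns of Nfyc, which encodes a subunit of the NF-Y transcription factor. On the minus strand of chromosome 15, Mir30b (chr15:68337415-68337510) lies outside other annotated genes and Mir30d (chr15:68341208-68341289), 3.70 kb away, overlaps an exon of the non-coding gene Gm20732. Mature miR-30c-5p is identical from Mir30c-1 and Mir30c-2, so its count joins chromosomes 1 and 4. The hairpins of miR-30a and miR-30e are printed with their mature strands in capitals, 5p first, because both strands of each were measured; 19 bases separate the strands in Mir30a and 20 in Mir30e.
Mir30a: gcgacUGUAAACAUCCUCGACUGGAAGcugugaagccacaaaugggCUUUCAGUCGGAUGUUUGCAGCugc
Mir30e: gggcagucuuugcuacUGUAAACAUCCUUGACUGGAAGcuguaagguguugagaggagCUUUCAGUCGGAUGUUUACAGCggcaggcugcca

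The 5 guides were a large part of the liver's miRNA. Summed, they took 8.42% and 8.30% of miRNA counts in TAA liver, against 9.10% and 8.99% in control liver. Counting error on these shares was at most 0.00864 percentage points to either side (95% Wilson interval). The TAA libraries lay below the controls, with means of 8.36% ± 0.084 and 9.04% ± 0.079 (SD, n = 2 each), a difference of -0.69 percentage points. The size depended on scaling: TAA liver was 7.61% below control by share of miRNA counts and 15.1% below by TMM-scaled CPM. An exact two-sided permutation test gave p = 0.333, the smallest that 2 libraries against 2 allow. In whole liver, fewer cells of a type and less RNA per cell cannot be told apart.

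miR-30a-5p led the family. It was the 4th most abundant miRNA in every library and made up 65.2% and 64.0% of the summed guides in TAA liver and 65.04% and 66.3% in control liver. The order after it was miR-30d-5p, miR-30e-5p, miR-30c-5p, miR-30b-5p, miR-30a-3p, miR-30e-3p and miR-30d-3p, and this order held within each library. Only miR-30d-5p and miR-30e-5p had ranges over the 4 libraries that overlapped, with miR-30d-5p at 1.06 to 1.18 times the reads of miR-30e-5p in the same library. These are levels by read count, with no length scaling. Bias of adapter ligation between strands was not measured.

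**Figure D1:**
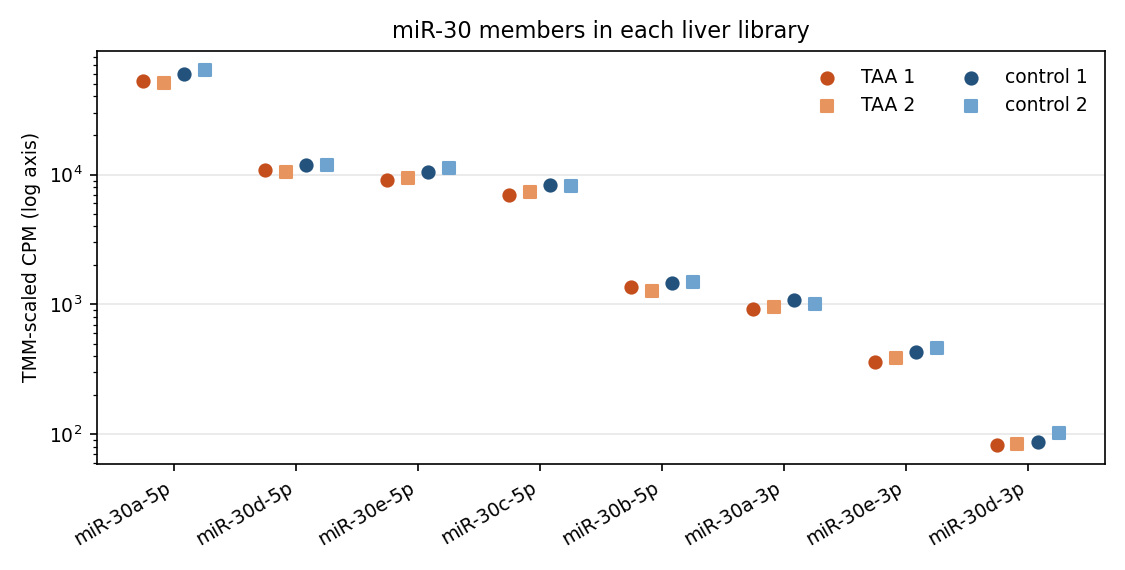
TMM-scaled CPM (log axis) of the 8 members in each library, with the TAA libraries in orange and the control libraries in blue. The levels run from miR-30a-5p, at 50566 to 64395 CPM, down to miR-30d-3p, at 82.9 to 103 CPM, and the TAA points of each member lie below its control points.

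The comparison of TAA with control liver asked whether any strand of the family differed in the fibrosis model. All 8 members were tested, each a little lower in TAA liver, and 0 of the 8 passed the test (edgeR's quasi-likelihood test over 644 miRNAs, Benjamini-Hochberg adjusted p under 0.05). Over all miRNAs tested, 2.64% passed as lower and 14% as higher. At an unadjusted p under 0.05, 2 members were lower, miR-30a-5p and miR-30e-5p, where 7.61% of all miRNAs were. Among the 51 miRNAs with a mean of at least 1000 CPM, which include both, 10 were. DESeq2 and limma-voom also called 0 members. The members' log2 fold changes, TAA over control, lay between -0.26 and -0.14 with a median of -0.19, beside a median of -0.0042 over all 644 miRNAs. Negative values were found for 323 of the 644, and for 37 of the 51 with a mean of at least 1000 CPM.

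miR-30a-5p, the main guide, had 52888 and 50566 CPM in TAA liver, against 59578 and 64395 CPM in control liver, where CPM is the count per 1e+06 of TMM-scaled library size. The groups did not overlap, and the gap between them exceeded the gap between replicates of either. The fitted log2 fold change was -0.26 (SE 0.09, 95% interval -0.48 to -0.05, edgeR adjusted p = 0.114), or 16.6% below control. The interval is for this strand alone, unadjusted for the number tested. With control 1 left out, a fit that rests on a single control library, the log2 fold change of miR-30a-5p was -0.34. Over its 15 alternatives it lay between -0.43 and -0.14.

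miR-30e-5p, which differs from it by 1 base, had 9154 and 9340.0 CPM in TAA liver, against 10530.4 and 11257 CPM in control liver. Its log2 fold change was -0.24 (SE 0.10, 95% interval -0.46 to -0.01, edgeR adjusted p = 0.164). Reads of miR-30a-5p were 5.78 and 5.41 times those of miR-30e-5p in TAA liver and 5.66 and 5.72 times in control liver, so the groups overlapped in this ratio (exact permutation p = 1.0).

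miR-30d-5p, the second most abundant member, had 10763 and 10537 CPM in TAA liver, against 11753 and 11934 CPM in control liver. Its cluster neighbour miR-30b-5p had 1367 and 1279 CPM in TAA liver, against 1459.5 and 1489 CPM in control liver. Both pairs of TAA values were below the controls, with log2 fold changes of -0.15 (SE 0.09) for miR-30d-5p and -0.16 (SE 0.11) for miR-30b-5p and edgeR adjusted p of 0.367 and 0.416; without TAA 2, miR-30b-5p measured -0.10. miR-30d-5p gave 7.88 and 8.24 reads per read of miR-30b-5p in TAA liver and 8.05 and 8.02 in control liver. The ratio within this chromosome 15 pair therefore differed more between the TAA libraries than between the group means.

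miR-30c-5p, which comes from hairpins on chromosomes 1 and 4, had 6995 and 7321 CPM in TAA liver, against 8278 and 8114 CPM in control liver. TAA was again below control without passing, at an edgeR adjusted p of 0.249 (log2 fold change -0.20, SE 0.10).

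**Figure D2:**
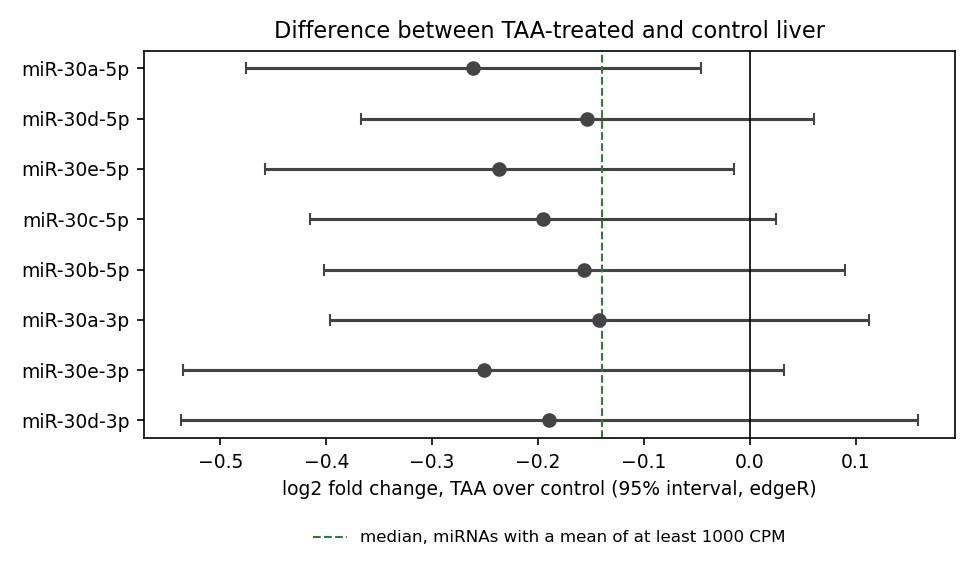
Log2 fold change of TAA over control for each member, with its 95% interval from edgeR (points and bars), beside 0 (solid line) and the median of the 51 miRNAs with a mean of at least 1000 CPM (dashed line, -0.14). All 8 points are below 0, as are 37 of the 51 miRNAs behind the dashed line. Of the members' intervals, those of miR-30a-5p and miR-30e-5p alone exclude 0.

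The 3p strands were measured at far lower levels. miR-30a-3p had 929.6 and 964 CPM in TAA liver, against 1078 and 1012 CPM in control liver (edgeR adjusted p = 0.488, log2 fold change -0.14, SE 0.11). miR-30e-3p had 359.7 and 387 CPM in TAA liver, against 430.1 and 459 CPM in control liver (adjusted p = 0.249, log2 fold change -0.25, SE 0.12). miR-30d-3p had 82.9 and 84.2 CPM in TAA liver, against 87.2 and 103 CPM in control liver (adjusted p = 0.502, log2 fold change -0.19, SE 0.15). All 3 lay below control in both TAA libraries, and in miR-30d-3p the controls differed from each other by 0.24 on the log2 scale, more than the group means did. Its log2 fold change was -0.33 without control 1 and -0.07 without control 2.

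Whether a member's groups separated depended on the scale. With TMM-scaled CPM both TAA libraries lay below both controls in 8 of 8 members, and in 25.6% of all tested miRNAs. By plain share of miRNA counts this held for 3 of the 8, miR-30a-5p, miR-30e-5p and miR-30e-3p, and for 14.8% of all. The miR-30a-5p share was 5.48% and 5.31% in TAA liver, against 5.92% and 5.96% in control liver. The miR-30d-5p share overlapped, at 1.12% and 1.11% in TAA liver and 1.17% and 1.10% in control liver. With library size alone, the median over all miRNAs moved to 0.12 on the log2 scale and that of the members to -0.07; with upper-quartile factors they moved to -0.17 and -0.36. Such factors move all miRNAs of a library together, so the distance between these medians could hardly change. The members' median lay 0.19 below that of all miRNAs in each of these fits and with TMM. The sign of every member was negative in all 15 alternatives, which reuse the same 4 libraries.

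Abundant miRNAs as a class sat low on the TMM scale. Among the 51 miRNAs with a mean of at least 1000 CPM, a minimum that the 5 guides exceed, log2 fold changes had a median of -0.14, and 51% of them had both TAA libraries below both controls. By share of miRNA counts, 17.6% of those 51 did. The guides' median, -0.20, was thus near that of miRNAs of like abundance.

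**Figure D3:**
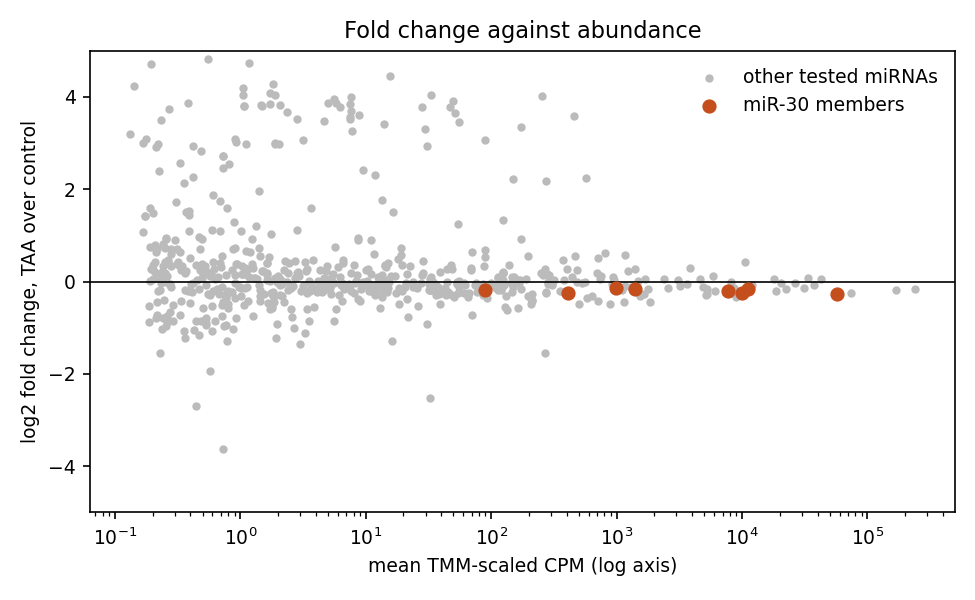
Log2 fold change of TAA over control against mean TMM-scaled CPM (log axis) for the tested miRNAs, with the 8 members in orange; 3 miRNAs beyond 5 log2 units are outside the axis. The members lie between -0.26 and -0.14, just below 0, in the upper part of the abundance range.

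The make-up of the guide pool was close to constant. Within the summed guides, miR-30d-5p took 13.3% and 13.3% in TAA liver, against 12.8% and 12.3% in control liver, and miR-30b-5p took 1.68% and 1.62% in TAA liver, against 1.59% and 1.53% in control liver. For these chromosome 15 strands the share of the pool lay higher in both TAA libraries, with an exact permutation p of 0.333 each, the smallest possible. Shares of the same pool are not independent, since a lower share of any strand raises the others. miR-30a-5p, miR-30c-5p and miR-30e-5p overlapped between groups; miR-30e-5p took 11.3% and 11.8% in TAA liver and 11.5% and 11.6% in control liver. Reads of miR-30a-5p per read of miR-30d-5p were 4.91 and 4.80 in TAA liver, against 5.07 and 5.40 in control liver (exact permutation p = 0.333, the smallest possible). Of 30 such values per library that were compared, including shares, ratios and marker sums, none had a Benjamini-Hochberg adjusted permutation p under 0.05, which this design cannot reach.

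**Figure D4:**
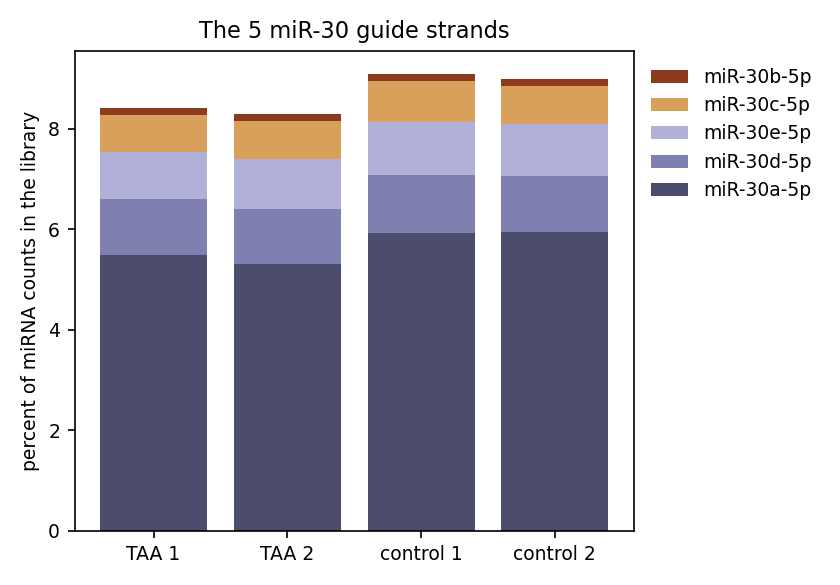
Percent of each library's miRNA counts taken by the 5 guides, stacked, with the TAA libraries left of the controls. The stacks reach 8.42% and 8.30% in TAA liver and 9.10% and 8.99% in control liver, and miR-30a-5p fills most of each.

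The balance of the strands of a hairpin, the log2 ratio of 5p to 3p reads, does not depend on how libraries are scaled. It was tested with limma over 150 hairpins, of which 0% passed at an adjusted p under 0.05 and 3.33% had an unadjusted p under 0.05. None of the 3 miR-30 hairpins with both strands among the members passed either threshold. miR-30a gave 56.9 and 52.4 reads of 5p per read of 3p in TAA liver, against 55.3 and 63.6 in control liver (log2 difference -0.12, SE 0.19, 95% interval -0.59 to 0.35, adjusted p = 0.985). That difference was -0.22 without control 1, -0.017 without control 2 and -0.06 without TAA 2. miR-30d gave 129.8 and 125 in TAA liver, against 135 and 116 in control liver (log2 difference 0.03, SE 0.19, 95% interval -0.44 to 0.50, same adjusted p). miR-30e gave 25.5 and 24.1 in TAA liver, against 24.5 and 24.5 in control liver (log2 difference 0.02, SE 0.18, 95% interval -0.42 to 0.45, same adjusted p). The groups overlapped in each of the 3, while 30.7% of the 150 hairpins had groups that did not. miR-30a was thus more strongly biased to its 5p strand than miR-30e in every library, though their mature strands differ by 1 base on each arm. By 3p reads miR-30a exceeded miR-30e only 2.58 and 2.49 times in TAA liver and 2.51 and 2.20 times in control liver.

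Of 4 further strands, 3 from these hairpins and 1 annotated opposite Mir30e, none passed. The 3p strands of the miR-30c hairpins tell the loci apart, since they differ at 3 of 22 bases. miR-30c-2-3p, from chromosome 1, had 6229 and 7717 counts in TAA liver and 6959 and 6319 in control liver. miR-30c-1-3p, from chromosome 4, had 1381 and 1671 counts in TAA liver and 1530 and 1523 in control liver. By TMM-scaled CPM its TAA values, 30.4 and 32.6, lay below its controls, 36.1 and 35.6 (log2 fold change -0.19, SE 0.16). So did those of 25.6% of all tested miRNAs. The groups of miR-30c-2-3p overlapped in CPM (log2 fold change -0.12, SE 0.14). Reads of miR-30c-2-3p exceeded those of miR-30c-1-3p 4.51 and 4.62 times in TAA liver and 4.55 and 4.15 times in control liver. The groups overlapped in this ratio. miR-30b-3p had 8.0 and 8.3 CPM in TAA liver and 9.0 and 7.7 CPM in control liver.

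The remaining strand, miR-30f, is annotated on the plus strand of chromosome 4, opposite Mir30e, and is shown with bases 2 to 8 in capitals, since they are not the family's seed.
miR-30f: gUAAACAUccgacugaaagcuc
Its first 19 bases equal a run of the reverse complement of miR-30e-3p, and its first 10 equal a run of miR-30a-5p, miR-30c-5p and miR-30e-5p that starts 1 base into them. It had 48 and 87 counts in TAA liver, against 21 and 34 in control liver. This was the opposite direction to the 8 members, with groups that did not overlap, and the test was not passed (edgeR adjusted p = 0.147, log2 fold change 1.09, SE 0.42). At such counts, and with an unstated strand setting in the counting, its reads are less certain than those of any member.

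The guides were set against a pair of other multi-copy guide families. Of 5 miR-26 strands 0 passed, and their log2 fold changes had a median of 0.02 that rests on 3 scarce 3p strands; the guides miR-26a-5p and miR-26b-5p measured -0.07 and -0.21. Of 9 let-7 strands 1 rose (let-7e-5p, log2 fold change 0.56) and 0 fell, beside 14% and 2.64% of all tested miRNAs. The log2 fold changes of the 9 had a median of 0.01 and a lowest value of -0.17. miR-26a-5p, the main strand of its family, had 39026 and 34624 CPM in TAA liver and 38265 and 39070.1 CPM in control liver. miR-26b-5p had 6118 and 5087 CPM in TAA liver and 5906 and 7083 CPM in control liver, so its groups overlapped. let-7f-5p had 19569 and 20762 CPM in TAA liver and 19806 and 21494 CPM in control liver. Summed guides of miR-30 per summed let-7 5p strands were 1.86 and 1.73 in TAA liver, against 2.02 and 2.19 in control liver. Per summed miR-26 5p strands they were 1.80 and 1.99 in TAA liver, against 2.07 and 2.11 in control liver. TAA was below control in both ratios, each with an exact permutation p of 0.333, the smallest possible.

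The profile of the summed guides over the 4 libraries was nearest to that of miR-148a-3p among 46 other miRNAs with a mean of at least 1000 CPM, by the root-mean-square difference of centred log2 CPM. That distance was 0.041, and the next were miR-130a-3p (0.049), miR-22-3p (0.049), miR-192-5p (0.050) and miR-122-3p (0.053), against a median of 0.104 over the 46. The guides are parts of the sum, with miR-30a-5p the largest, so their own distances from it are partly built in. The members themselves lay at 0.018 (miR-30a-5p) to 0.085 (miR-30a-3p), with the guide miR-30c-5p at 0.058. The listed miRNAs were thus no farther from the sum than some members. miR-148a-3p had 66160.1 and 69383 CPM in TAA liver and 76272 and 83541 CPM in control liver. Against the miRNA of hepatocytes, miR-122-5p, the guides gave 4.67 and 4.52 reads per read in TAA liver and 5.01 and 4.498 in control liver, so the groups overlapped.

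Marker miRNAs of liver cell types were measured in the same libraries. The 5 hepatocyte miRNAs summed to 317847 and 328676 CPM in TAA liver, against 349916 and 380613 CPM in control liver, and 0 passed. By TMM-scaled CPM all 5 had both TAA libraries below both controls. So did 25.6% of all tested miRNAs and 51% of those with a mean of at least 1000 CPM. By share of miRNA counts this held for 2 of the 5, beside 14.8% of all and 17.6% of the abundant ones. Over all 644 tested, 14% passed as higher and 2.64% as lower. Leukocyte miRNAs summed to 1974 and 1726 CPM in TAA liver, against 940.2 and 1455 CPM in control liver, with 3 of 6 passing as higher. Most of that sum was miR-142a-5p, which did not pass (edgeR adjusted p = 0.138). The 3 that passed were miR-150-5p, miR-155-5p and miR-342-3p. Erythroid miRNAs summed to 731 and 2627 CPM in TAA liver, against 445 and 274 CPM in control liver, with 5 of 5 higher and TAA 2 standing apart. Of 7 mesenchymal miRNAs 1 rose (miR-214-3p), a share near the 14% over all tested. The log2 fold changes of the 7 had a median of 0.51. By TMM-scaled CPM 4 of the 7 had both TAA libraries above both controls, as did 191 of all 644 tested. Their sum, nearly all miR-143-3p, overlapped, at 32243 and 23842 CPM in TAA liver and 28185 and 28425 CPM in control liver. Of 5 miRNAs of biliary and other epithelia, 2 passed as lower (miR-200c-3p and miR-141-3p), and of 2 endothelial miRNAs 0 passed. The part of cell composition in the miR-30 values was not tested.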

How the data were processed

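The authors deposited a table of raw counts for each library, with whole-number reads for every mature miRNA. The submitters' processing notes name Bowtie, HTSeq and the mm10 build; versions, permitted mismatches, strand setting and trimming were not stated. Per the labels' protocols, RNA was prepared with miRNeasy and libraries with TruSeq small RNA reagents. The 5 summary rows, which name no miRNA and held 31.3% to 34.6% of reads, stayed out of library sizes and tests; 1 of them, for reads with more than 1 alignment, holds 0.

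The TAA and control counts were compared with edgeR 4.0.16 in R 4.3.3, using filterByExpr, TMM factors and the quasi-likelihood test; p-values of the 644 miRNAs kept were adjusted by Benjamini-Hochberg. 1 CPM was 42.3 to 51.3 counts. The standard error is the log2 fold change over the square root of F. Strand ratios (each count plus 0.5, mean of at least 20 per strand) were tested with limma 3.58.1. DESeq2 1.42.0 was an alternative. Both procedures were also run on simulated data with changes larger than those of the members. That run does not show whether changes of the members' size can be found. Replicates differed by more than read sampling (chi-square per degree of freedom 207 in TAA, 150.2 in control). Intervals of shares cover counting error only.

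The members, lists and tests were chosen with earlier results of these data known. All members were named, with listed relatives, 2 comparison families (the text gives their main strands and any that passed), marker lists and the 5 nearest profiles; miR-384-5p was named after its counts were seen. Positions are from GENCODE M21 (GRCm38, which is mm10).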

Additional observations from a re-analysis of the deposited data

How the results depend on the processing

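In the fit with all libraries 0 members passed as lower and 0 as higher. Leaving out 1 library at a time leaves a group of 1 library, so only effect sizes are given for those fits. The log2 fold change of miR-30a-5p was -0.34 without control 1. Every other alternative (normalization factors, filters, DESeq2, limma-voom, removal of miR-192-5p or of 117 Dlk1-Dio3 miRNAs) gave 0 and 0. With the replicate block, from the numbers in the titles, 0 members passed and 110 miRNAs in all, against 107 without it. The labels do not say that a number pairs libraries, and same-numbered libraries deviated with a correlation of -0.13; pairing them crosswise, added after seeing the data, gave 115 miRNAs and 0 members. The median log2 fold change of the 8 members lay between -0.36 and -0.07 over the 15 alternatives, and its distance from the median of all miRNAs between -0.28 and -0.14. The log2 ratio of the summed guides, TAA over control, was -0.11 by share of miRNA counts, -0.24 by TMM-scaled CPM and -0.15 by share of all reads in the file; leaving out 1 library at a time gave -0.12 to -0.10. Strand ratios called 0 miR-30 hairpins under each alternative that kept all 4 libraries. Over all alternatives run, 2 of the 24 values turned sign. With 1 library left out at a time, the log2 difference ranged from -0.080 (without control 2) to 0.14 for miR-30d, from -0.22 to -0.017 for miR-30a and from -0.023 (without TAA 1) to 0.055 for miR-30e. The cause was not tested. The members had at least 3693 counts in each library, and miR-30f 21 to 87.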
